A study of Danio rerio with 1324 samples.

Results

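The genes described here are 9 repressor genes of the circadian clock, chosen by symbol from the 31916 genes of the deposited tables: per2, per3, both genes named per1, nr1d1, nr1d2a, nr1d2b, bhlhe40 and bhlhe41. The cells were pancreatic beta-cells of zebrafish carrying the transgene Tg(ins:BB1.0L), in which the insulin promoter drives the fluorescent proteins used for sorting, so every group shares this transgene and the sorting gate. Cells of the ages 1, 3, 4, 6, 10, 12 and 14 months post-fertilization (mpf) were the training set, all under normal feeding: the youngest age was called 'Juvenile', those from 3 to 6 mpf 'Adolescent' and those from 10 mpf on 'Adult'. Further cohorts were a second batch of 4 mpf (4 mpf Batch2), 3 mpf cells from the C1 instrument (3 mpf C1), 45 days post-fertilization (dpf), 9 mpf and 13 mpf. With 13 mpf came 1 mpf cells that the paper places on the same plate (1 mpf of the plate). The last cohorts were 4 mpf fish after a month of intermittent feeding on alternate days (4 mpf IF) or of feeding 3 times a day (4 mpf 3TD). Columns marked New set a batch apart within 3 mpf and within 6 mpf. Each of the resulting 17 pools held the cells of several fish collected together, and a pool, not a cell, was taken as the sample.

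In vertebrates the clock is a loop of transcription in which CLOCK and BMAL proteins (the latter from the arntl genes) switch on the genes of their own repressors. PER proteins, with cryptochromes, block CLOCK and BMAL; the nuclear receptors of the nr1d genes (Rev-erb) repress the arntl genes; and bhlhe40 and bhlhe41 (Dec1 and Dec2) compete for the same E-box sequences. The repressor genes and the arntl genes therefore peak at opposite times of day, and in zebrafish, whose cells respond to light directly, per2 is also known as a light-induced gene. The hour at which each pool was collected is not given in the sources used here. Hour of collection therefore cannot be told apart from age, diet or batch in any comparison below.

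The tables held 1014 of the 1324 labelled cells, 637 of them in the 9 training pools (1 Juvenile, 5 Adolescent and 3 Adult). The smallest pool had 13 cells (3 mpf C1), and the pools had a median of 238828 to 1162067 reads per cell, and ins, the insulin gene, took 51.4% to 78.5% of the length-scaled transcript total (transcripts per 1000000, TPM). The other beta-cell markers pdx1 and mnx1 had reads in each of the 16 plate pools, whereas ucn3l, a marker of mature beta-cells, ranged on plates from 3.25 TPM (4 mpf) to 1121 TPM (10 mpf). Hormone genes of other islet cells were present too: the summed alpha-cell genes (gcga, gcgb) ranged from 110 TPM (4 mpf 3TD) to 26508 TPM (4 mpf), and the summed delta-cell genes (sst1.1, sst2, hhex) from 31.9 TPM (4 mpf Batch2) to 57992 TPM (6 mpf New) over the plate pools, with no read of the delta-cell genes in 3 mpf C1. The 30 cells deposited as 1 mpf of the plate matched 30 of the 87 training cells of 1 mpf one to one, with correlations of 0.975 to 0.997 where other pairs of cells reached at most 0.802. They are thus not an independent pool, and 16 pools hold distinct cells. On these shared cells the members differed between the tables by at most 0.07 on the log2 scale.

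Averaged over the cells of a pool, the clock repressors were low to moderate transcripts led by the bhlhe4 genes. The 9 genes summed to 58.03 TPM in 13 mpf, to 180 TPM in the median and to 518 TPM in 1 mpf, over the 16 plate pools. TPM is per length, so levels can be set side by side between genes. In the medians of the 15 plate pools with distinct cells, bhlhe40 (60.4 TPM) and bhlhe41 (53.7 TPM) stood above nr1d2b (17.9 TPM), per2 (12.96 TPM) and nr1d2a (12.3 TPM), and these above per1 (ENSDARG00000012499) at 4.03 TPM, nr1d1 at 2.65 TPM, per3 at 2.11 TPM and per1 (ENSDARG00000056885) at 0.534 TPM. Neighbours in this order had ranges over pools that overlapped. The files and name tables do not say which of the 2 per1 identifiers is per1a and which per1b. A lower pool level can come from fewer cells with the transcript or from less of it per cell, and in cells with few reads these cannot be told apart.

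The ranges and rankings of the next 3 paragraphs are over these 15 pools, without the repeated 1 mpf cells and without 3 mpf C1, which is described after them. The ranked levels are TPM, of which ins took 51.4% in 1 mpf and 78.5% in 3 mpf, so the rankings depend on that share. Among the period genes, per2 was the most abundant, from 4.69 TPM in 13 mpf to 30.7 TPM in 6 mpf on plates. Both 6 mpf pools (30.7 and 26.9 TPM) and 1 mpf (27.8 TPM) were high for per2, and 13, 9 and 14 mpf were low (4.69, 7.36 and 7.75 TPM). With ins left out of the TPM, per2 was still highest in 6 mpf (93.99 TPM) and 6 mpf New (71.6 TPM). On that scale 1 mpf (60.3 TPM) lay below 4 mpf Batch2 (70.8 TPM). Reads of per2 were seen in 32% of the 13 mpf cells (exact 95% interval 19.5% to 46.7%) and in 93.5% of the 4 mpf Batch2 cells (82.1% to 98.6%), and these intervals, like all others here, cover counting error only. per3, a PER protein thought to be less needed for the core rhythm in mammals, ran from no read in 13 mpf to 4.42 TPM in 1 mpf. In 13 mpf per3 had reads in 0 of 50 cells, which allows a share of up to 6% (3 counts of the total) and up to 7.11% by the exact 95% bound, and the same held for per1 (ENSDARG00000056885). That second per1 gene never passed 2.27 TPM on plates (6 mpf New, where a single cell gave 80.8% of it), while per1 (ENSDARG00000012499) lay between 0.414 TPM (13 mpf) and 8.67 TPM (1 mpf). With ins left out, per3 was highest in 3 mpf (14.7 TPM, and 8.89 TPM in 1 mpf). The same held for per1 (ENSDARG00000012499), at 24.8 TPM in 3 mpf and 18.5 TPM in 1 mpf.

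The nr1d genes differed from each other in where they were high. nr1d1 (Rev-erb alpha) was highest in 1 mpf at 18.7 TPM and had reads in 57.5% of its cells (46.4% to 68.01%), and its lowest plate levels were 0.357 TPM in 13 mpf and 0.409 TPM in 6 mpf New. After 1 mpf, the share of cells with an nr1d1 read on plates ran from 4% (13 mpf) to 37.8% (45 dpf), and single cells gave large parts of the pool level, 79.02% in 4 mpf IF and 95.2% in 13 mpf. nr1d2a, a Rev-erb beta gene, was high in 9 mpf (32.4 TPM), 6 mpf New (31.9 TPM), 6 mpf (27.7 TPM) and 1 mpf (26.95 TPM), and low in 45 dpf (4.44 TPM) and 13 mpf (1.07 TPM). Its paralog nr1d2b was high in 4 mpf IF (48.2 TPM) and 1 mpf (42.5 TPM) and lowest in 14 mpf (8.75 TPM). The pools that were high for nr1d2a and for nr1d2b had 1 mpf in common but not 9 mpf, at 13.9 TPM of nr1d2b.

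The E-box repressors bhlhe40 and bhlhe41 were highest in 1 mpf, at 231 and 156.9 TPM. For bhlhe40 the next distinct pools were 4 mpf IF (126.3 TPM) and 4 mpf Batch2 (90.9 TPM), and the lowest were 4 mpf 3TD (27.3 TPM), 13 mpf (27.8 TPM), 6 mpf New (33.98 TPM) and 9 mpf (34.4 TPM). For bhlhe41 the next were 3 mpf New (107.9 TPM) and 6 mpf (100.4 TPM), and the lowest was 13 mpf (12.3 TPM). With ins left out of the TPM, both genes were still highest in 1 mpf (478 and 341 TPM). On that scale bhlhe40 was lowest in 6 mpf New (83.4 TPM), and 4 mpf 3TD stood at 110.5 TPM. Of the 1 mpf cells, 98.9% had a bhlhe40 read and 96.6% a bhlhe41 read, against 40% and 34% in 13 mpf. Thinned to 100000 reads a cell, these shares were 96.2% and 91.6% in 1 mpf and 36% and 27.1% in 13 mpf, although 13 mpf was the more deeply sequenced pool, with a median of 767496 reads per cell against 646580.

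**Figure D1:**
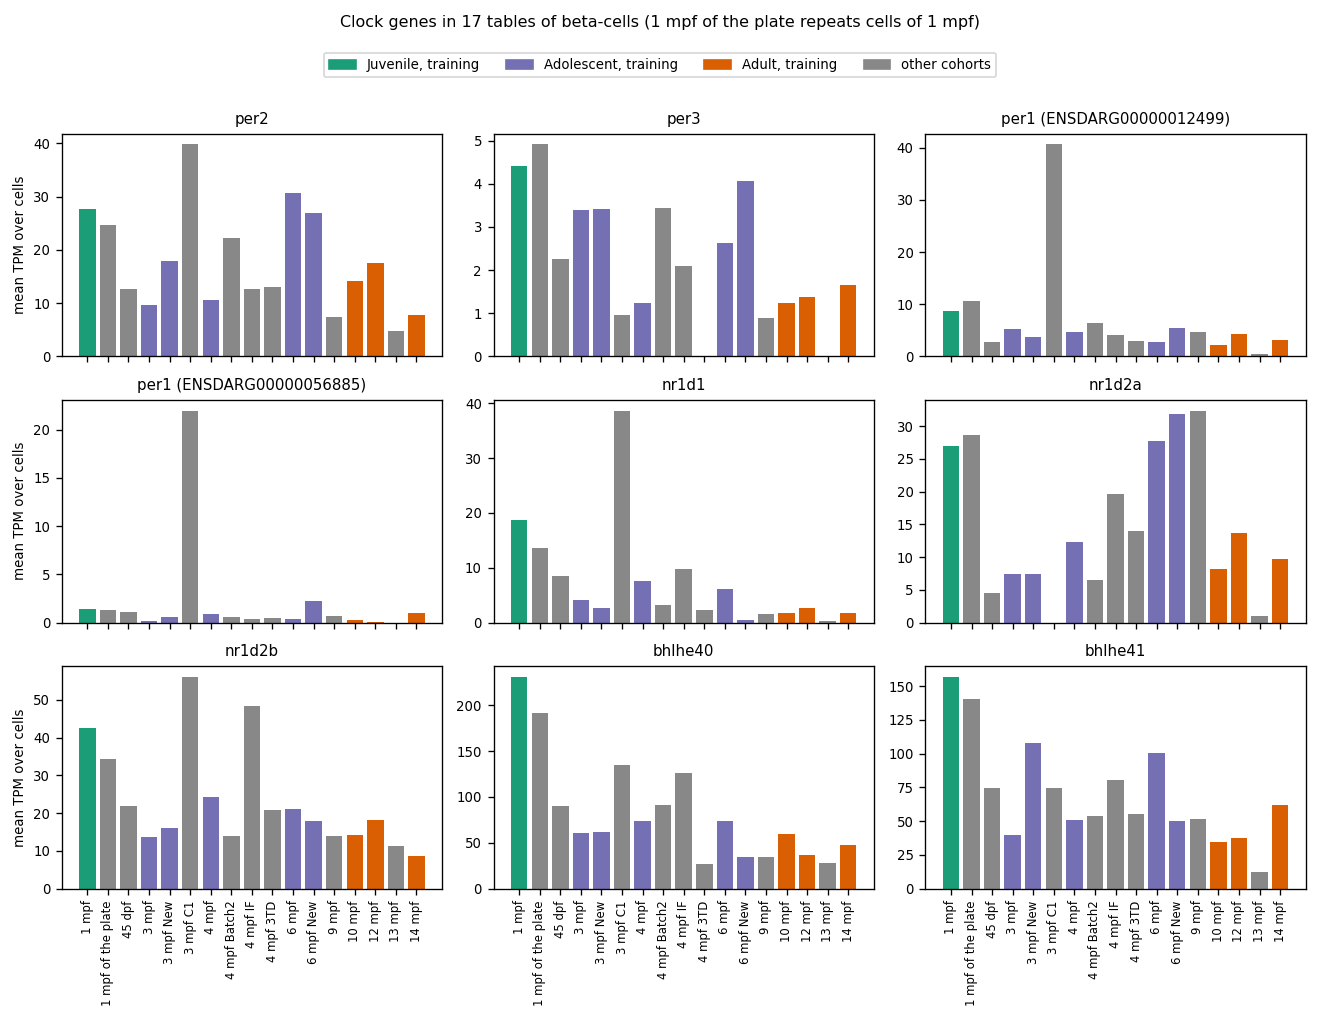
Mean TPM over the cells of each of the 17 pools (x axis, in order of age) for the 9 clock genes, 1 panel each with its own y axis from 0; colours mark the stages of the training pools and grey the other cohorts. The 1 mpf bars lead for bhlhe40 (231 TPM) and bhlhe41 (156.9 TPM), the 13 mpf bar is the lowest or nearly so in most panels, and 3 mpf C1, with 13 cells, stands apart for both per1 genes.

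**Figure D2:**
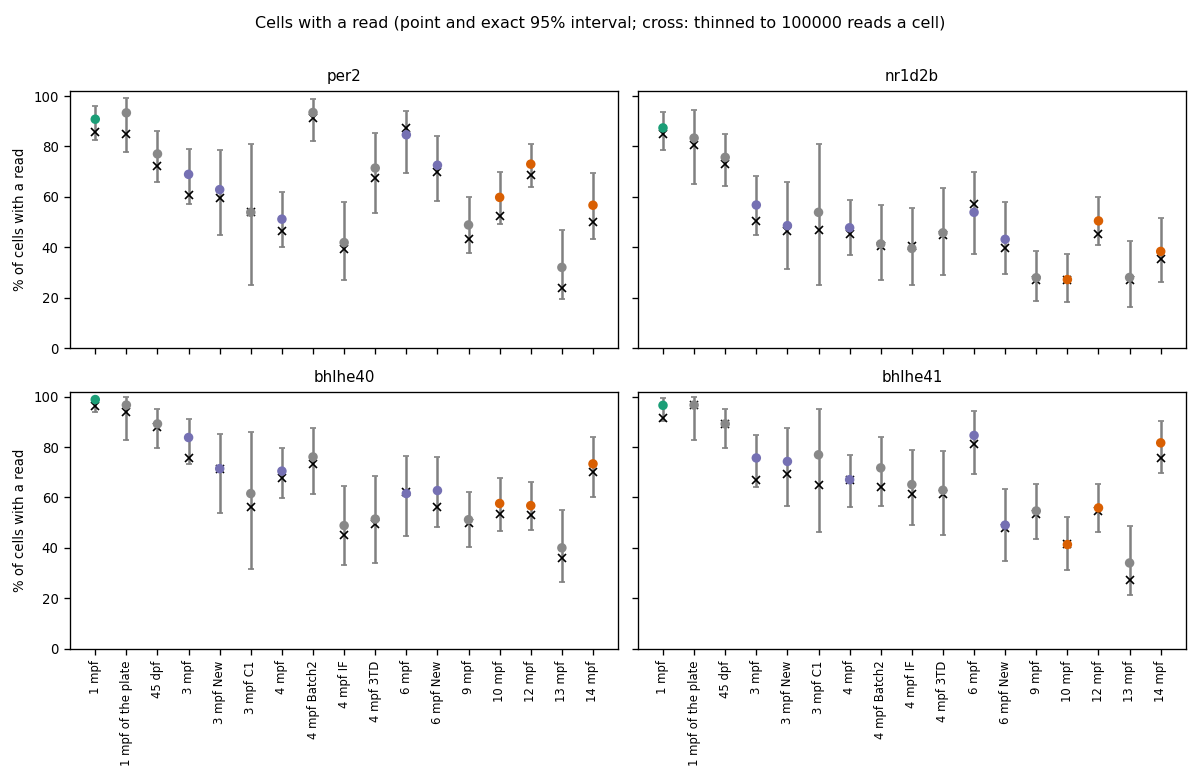
Share of cells with at least 1 read (y axis, %) in each pool (x axis) for per2, nr1d2b, bhlhe40 and bhlhe41; bars are exact 95% intervals and crosses the share after thinning each cell to 100000 reads. For bhlhe40 the share was 98.9% in 1 mpf and 40% in 13 mpf, and the crosses lie close to the points.

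The levels in the 13 cells from the C1 instrument are given beside the plate range. The share of all genes outside that range was not counted, so nothing particular to the clock genes is read from them. Their per1 (ENSDARG00000012499) level of 40.6 TPM, per1 (ENSDARG00000056885) level of 21.97 TPM and nr1d1 level of 38.7 TPM lay above every plate pool. per2 at 39.8 TPM and nr1d2b at 56.1 TPM did so too, and bhlhe40 at 134.5 TPM lay below 1 mpf only. Within the plate range lay per3 at 0.959 TPM and bhlhe41 at 74.7 TPM. nr1d2a had reads in 0 of 13 cells, which allows a share of up to 23.1% (3 counts of the total) and up to 24.7% by the exact 95% bound. Single cells gave 30.9% to 44.2% of the per1 and nr1d1 levels and 54.8% of the bhlhe40 level. Capture method and batch cannot be told apart there.

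A pair of pools stood at the ends of the range. On the TPM scale 1 mpf lay above all 8 later training pools for 6 of 9 members (per3, per1 (ENSDARG00000012499), nr1d1, nr1d2b, bhlhe40 and bhlhe41), where 33.7% of the 11348 genes with a mean of at least 1 TPM did so. In the training reads summed per pool and scaled to counts per 1000000 (CPM), it was 3 of 9 (nr1d1, nr1d2b and bhlhe40) where 12.8% of all genes tested did so, and with ins left out of the TPM it was 4 of 9, those 3 and bhlhe41, against 14.1%. The 1 mpf cells also had the most detected genes among the training pools (a median of 4722, against 2519 to 3284 in the later ones), the lowest share of ins (51.4% of TPM) and the highest summed immediate-early (1898 TPM) and heat-shock genes (11248 TPM) of the plate pools. The part of these in the members' levels was not tested.

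At the other end, 13 mpf was the lowest of the 16 plate pools for 7 of 9 members, all except nr1d2b and bhlhe40, where 14.2% of genes had their lowest level there. It was 7 of 9 as well with ins left out of the TPM, against 12.9% of genes. Of the other clock lists, 4 were at their lowest in 13 mpf: the summed cryptochromes and ciart genes (41.5 TPM), the PAR bZIP factors with nfil3 (36.3 TPM), the ROR receptors (3.73 TPM) and the PER and CRY kinases and ubiquitin ligases (56.4 TPM) each had their lowest plate sum in this pool. The positive limb was not, with a sum of 7.04 TPM in 13 mpf beside a plate median of 7.78 TPM and a lowest of 3.93 TPM (3 mpf). Most of this 13 mpf sum was arntl1a (4.75 TPM), from reads in 5 of 50 cells. arntl1b was at 0.799, arntl2 at 1.09, npas2 at 0.336 and the clock genes at 0.059 and 0 TPM there. Summed heat-shock genes were at 9684 TPM, the immediate-early genes at 614 TPM and the alpha-cell genes at 437 TPM in 13 mpf, and their part was not tested.

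Whether the repressors differ between the stages was asked on the reads of the 9 training pools, with pools as replicates. Each pool was a separate batch of fish, some of them collected on a shared date, and the p-values measure the spread between these pools only. bhlhe40 was at 287, 154.3, 188, 276 and 85.01 CPM in the Adolescent pools 3 mpf, 3 mpf New, 4 mpf, 6 mpf and 6 mpf New. In the Adult pools 10, 12 and 14 mpf it was at 184.7, 122.4 and 227 CPM, so the groups overlapped. bhlhe41 was at 235, 299, 168.8, 362 and 170 CPM in the Adolescent and at 120, 137.8 and 298 CPM in the Adult pools, which overlapped as well.

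The other members overlapped between the stages in the same way. nr1d1 was at 17.97, 7.15, 22.4, 21.1 and 1.27 CPM in the 5 Adolescent pools, and at 6.24, 8.78 and 8.43 CPM in the 3 Adult pools. per2 was at 93.2, 86.2, 53.5, 177.7 and 146.9 CPM in the Adolescent and at 85.5, 112.5 and 67.8 CPM in the Adult pools. nr1d2b, with 95.2 ± 26.4 CPM (SD, n = 5) in the Adolescent and 62.9 ± 18.6 CPM (SD, n = 3) in the Adult pools, had the smallest p of the 9, and its values ran from 57.3 to 123.8 CPM and from 43.8 to 81.04 CPM. For none of the 9 members did all Adult pools lie below all Adolescent pools, as 1.23% of genes did, or above them, as 1.7% did.

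In edgeR's quasi-likelihood fit all 9 members had lower fitted levels in the Adult pools, and none passed the test. The log2 differences ran from -0.15 (bhlhe40) to -0.84 (nr1d1), with a median of -0.41 where that of all genes was -0.05. The share of all genes below 0 was not counted. For nr1d2b the log2 difference was -0.60 (SE 0.36) with an adjusted p of 0.76 (edgeR, Benjamini-Hochberg over all genes). Of 18726 genes 0 were called at an adjusted p of 0.05 (0%), 986 had an unadjusted p under 0.05, and DESeq2 called 55, none of them a member. On simulated counts this comparison recovered 60% of genes changed by 3 on the log2 scale, and 6.98% of its calls were false. The changed genes were drawn from those above the median CPM, so smaller differences and changes of lower genes could easily be missed.

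The single Juvenile pool had fitted levels above the Adolescent pools for 8 of 9 members, all except per2. The median log2 difference was 0.34 where that of all genes was -0.09, and the share of all genes above 0 was not counted. bhlhe40, at 454 CPM in 1 mpf and 198 ± 84.8 CPM (SD, n = 5) in the Adolescent pools, had a log2 difference of 1.198 (SE 0.55) and an unadjusted p of 0.0497 in edgeR's test, with an adjusted p of 0.99. nr1d1, at 37.5 CPM in 1 mpf and 14.0 ± 9.29 CPM (SD, n = 5) in the Adolescent pools, had a log2 difference of 1.42 (SE 0.99) and an adjusted p of 1 in edgeR's test. Of 18726 genes 0 (0%) were called by edgeR, 916 had an unadjusted p under 0.05 and DESeq2 called 110, none of them a member. The lone Juvenile pool is assumed to vary like the others in this fit.

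Over log2 age, 7 of the 8 members tested had slopes below 0, and none passed the test, per1 (ENSDARG00000056885) being too low to enter. The median slope of the members was -0.21, where that of all genes was 0.001, and the share of all genes below 0 was not counted. The slopes per doubling of age were -0.56 for nr1d1 (SE 0.26, unadjusted p = 0.046) and -0.30 for bhlhe40 (SE 0.14, unadjusted p = 0.045), both with an adjusted p of 1.00 in edgeR's test, while per2 (0.01) and nr1d2a (0.00) had slopes near 0. Of 8897 genes 2 (0.0225%) were called, both falling and neither a clock gene: PSAT1, with a slope of -0.95 (SE 0.15), and si:ch211-39i2.2, with -1.70 (SE 0.26), each at an adjusted p of 0.048 and named here after their values were seen. DESeq2 called 19, none of them a member. Leaving out 10 mpf left 1 of the 2 calls in number, and leaving out any other pool left 0. With single pools left out, the slope ran from -0.42 to -0.11 for bhlhe40 and from -0.62 to -0.46 for nr1d1.

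**Figure D3:**
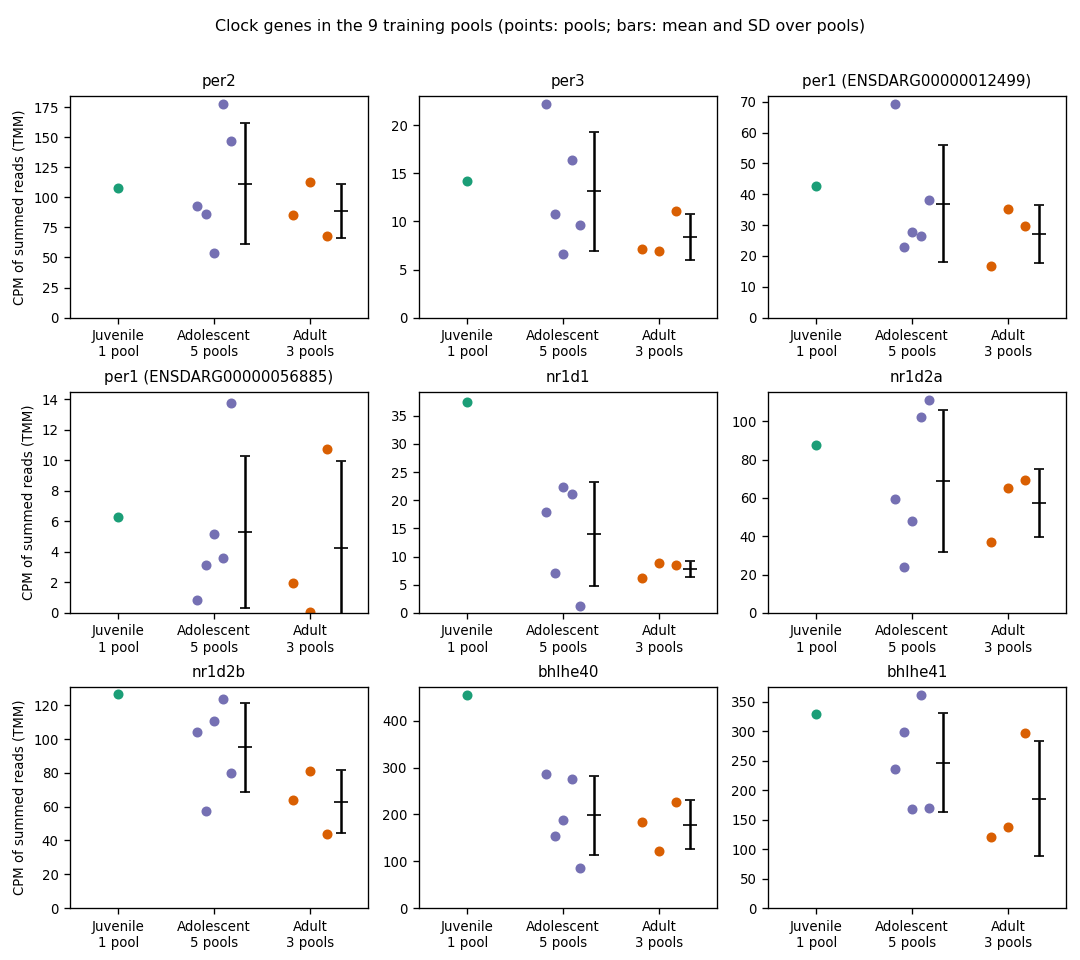
CPM of the summed reads (y axis, from 0) in the 9 training pools by stage, 1 panel per clock gene; points are pools, and bars the mean and SD over the Adolescent (n = 5) and Adult (n = 3) pools, the lower end of a bar being off the axis where it falls below 0. Adult and Adolescent pools overlap in every panel, and the 1 mpf point lies above all later pools for nr1d1 (37.5 CPM), nr1d2b (126.8 CPM) and bhlhe40 (454 CPM).

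The rest of the clock gave 0 calls in edgeR's fits as well: 0 of 6 positive-limb genes, 0 of 10 cryptochrome and ciart genes, 0 of 9 PAR bZIP and nfil3 genes tested, 0 of 5 ROR genes and 0 of 6 kinase and ligase genes tested, both for Adult and for Juvenile against Adolescent pools. Unadjusted, 1 positive-limb gene (arntl2) and 1 cryptochrome (cry4) had p under 0.05 between Adult and Adolescent pools (0.018 and 0.031), at median plate levels of 0.125 and 0 TPM. Among the listed cryptochrome genes, cry1aa led with a plate median of 32.5 TPM (16.7 TPM in 13 mpf to 52.03 TPM in 4 mpf IF, and 134.4 TPM in 3 mpf C1). ciarta, a relative of the mammalian repressor CIART (Chrono), ran on plates from no read in 13 mpf to 38.1 TPM in 1 mpf, and its spread between plate pools exceeded that of 98.1% of genes. tefa, a PAR bZIP activator that binds D-box sequences and is tied to light induction in zebrafish, ran on plates from 12.1 TPM (10 mpf) to 81.8 TPM (1 mpf), and csnk1db, a casein kinase gene whose mammalian counterpart phosphorylates PER, from 17.4 TPM (13 mpf) to 71.9 TPM (4 mpf IF). ROR receptors, which drive the arntl genes against Rev-erb, had plate sums of 3.73 to 18.4 TPM.

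Markers and response genes fixed for comparison had 0 calls in edgeR's fits too. This held for the 6 glucocorticoid-response, 12 immediate-early and 10 heat-shock genes and for the beta-, alpha-, delta- and acinar-cell markers (4, 2, 3 and 2 genes). For Juvenile against Adolescent pools the median log2 differences were 0.63 for the glucocorticoid-response, 0.74 for the immediate-early and 0.49 for the heat-shock genes, beside 0.34 for the clock repressors. Other lists lay below 0: the cryptochromes and ciart (-0.46), kinases and ligases (-0.52), positive limb (-0.29), beta-cell (-0.75) and delta-cell markers (-1.04). The PAR bZIP factors with nfil3 (0.37), ROR receptors (0.04), alpha-cell (0.55) and acinar markers (0.59) lay above 0. The summed glucocorticoid-response genes, a pathway that can induce per1 in mammals, were at 846 TPM in 1 mpf, within a plate range of 106.95 TPM (3 mpf) to 1002 TPM (6 mpf New). The acinar genes summed to at most 28.6 TPM on plates (9 mpf). The part of these groups in the members' levels was not tested.

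Since repressors and arntl genes peak at opposite times of day, the members were set against genes of the positive limb. The positive limb was scarce: arntl1a (bmal1) had reads in at most 17.6% of the cells of a plate pool and ranged from 0.768 TPM (4 mpf Batch2) to 7.69 TPM (4 mpf 3TD). In the 9 training pools the summed bmal genes (arntl1a, arntl1b, arntl2) ranged from 6.80 CPM (10 mpf) to 21.5 CPM (14 mpf), with 12 mpf (21.4 CPM) and 6 mpf New (21.3 CPM) also high. The summed clock and npas2 genes ranged from 3.95 CPM (4 mpf) to 23.6 CPM (6 mpf).

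Against the bmal sum, 4 of 9 members had a Pearson correlation below 0 over the 9 pools, where 51.6% of genes did. bhlhe40 had r = -0.43 (exact permutation p = 0.25, adjusted p = 0.92) and Spearman's rho = -0.38 (exact permutation p = 0.31, adjusted p = 0.97). nr1d2a had the highest value, r = 0.54 (exact permutation p = 0.13, adjusted p = 0.84) and rho = 0.45 (exact permutation p = 0.23, adjusted p = 0.97). The highest bmal sum, in 14 mpf (21.5 CPM), was nearly reached by 12 mpf (21.4 CPM) and 6 mpf New (21.3 CPM). Leaving out 14 mpf in place of these therefore rested on a small difference. Without 10 and 14 mpf, the pools farthest from the median sum, 7 of 9 members were below 0, where 53.6% of genes were. r was then -0.76 for bhlhe40, -0.64 for nr1d1 and 0.44 for nr1d2a. It changed sign for bhlhe41 (0.11 to -0.64), per1 (ENSDARG00000012499) (0.26 to -0.19) and per1 (ENSDARG00000056885) (0.24 to -0.031), and moved from -0.064 to -0.52 for per3, so these values rested on those pools. Of 18723 genes 0 (0%) were called with two-sided exact permutation tests and Benjamini-Hochberg adjustment, and 1249 had an unadjusted p under 0.05. The orders of 9 pools are too few for a lone gene to pass 0.05 after this adjustment, whatever its correlation. The absence of calls therefore decides nothing about a single member.

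Against the sum of the clock and npas2 genes, 2 of 9 members were below 0, where 50.8% of genes were, and per2 had r = 0.81 (exact permutation p = 0.0096, adjusted p = 0.93) and rho = 0.50 (exact permutation p = 0.18, adjusted p = 1). Without 4 and 6 mpf, the pools with the lowest and the highest sum, r for per2 was 0.32, so the relation rested on these. Without them 6 of 9 members were below 0, where 47.1% of genes were, and r changed sign for per3 (0.29 to -0.57), bhlhe41 (0.31 to -0.27), bhlhe40 (0.097 to -0.16) and nr1d2b (0.020 to -0.015). Of 18723 genes 0 (0%) were called, under the same limit of 9 pools, and 910 had an unadjusted p under 0.05. In all, 18 relations of members were computed, none with an adjusted p under 0.84, and pools collected on the same date are not independent points. Dates could not be tied to single columns for 3 and 6 mpf, so no within-date correlation was made.

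**Figure D4:**
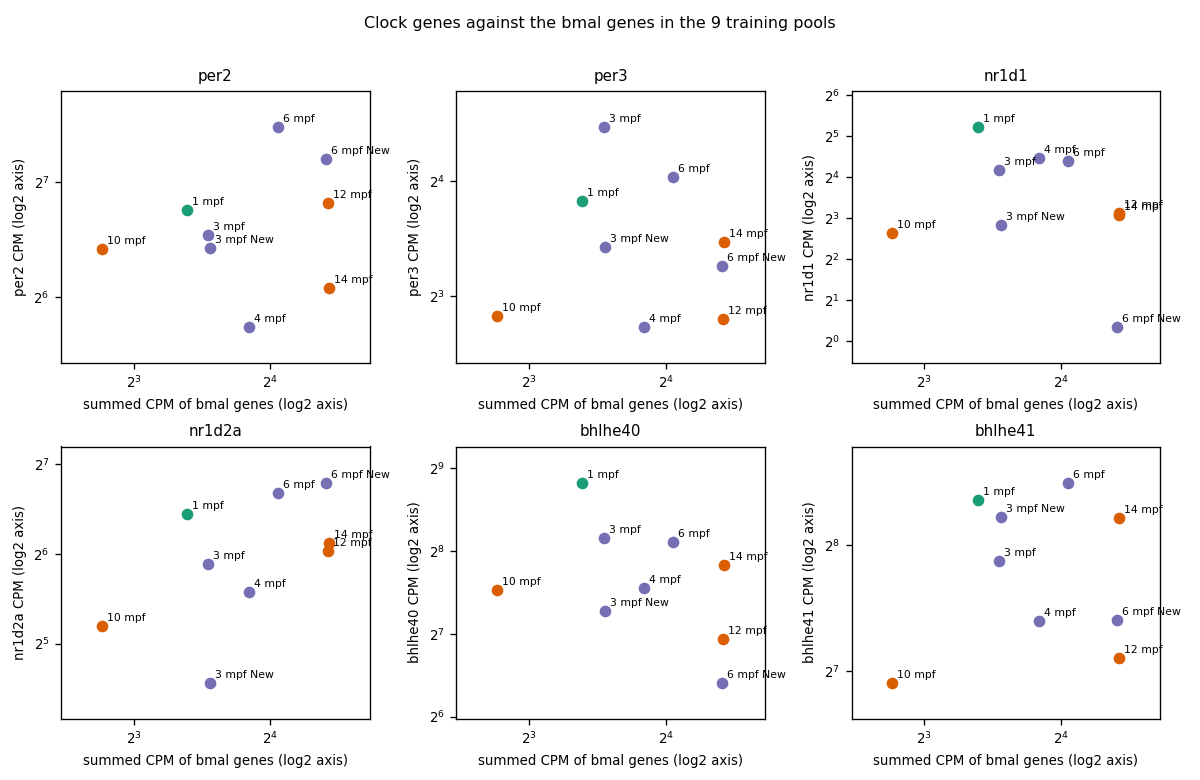
CPM of 6 clock genes (y axes, log2 scale) against the summed CPM of arntl1a, arntl1b and arntl2 (x axis, log2 scale) in the 9 training pools, named beside the points and coloured by stage. The points of bhlhe40 slope downward loosely (r = -0.43) and those of nr1d2a upward (r = 0.54). Neither relation passed the adjusted test, which no lone gene could pass over 9 pools.

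Pools of the same age but of different batches were compared as well. These are comparisons of single pools, with no test, as differences of log2(mean TPM + 1), a scale that understates changes of low genes. Between 3 mpf New and 3 mpf, 1 of 9 members passed a difference of 1, bhlhe41 (107.9 against 39.5 TPM, log2 difference 1.43), where 44.3% of genes were past 1 in either direction and the median of all genes was 0.67. ins took 78.5% of the TPM in 3 mpf and 59.4% in 3 mpf New. With ins left out, bhlhe41 stood at 0.58 and 3 members passed 1 in the lower direction, where 2396 of 11347 genes did. The split thus depends on that scaling. Between 6 mpf New and 6 mpf, nr1d1 (0.409 against 6.04 TPM, log2 difference -2.32) and bhlhe40 (33.98 against 73.9 TPM, -1.10) were past 1 lower and per1 (ENSDARG00000056885) past 1 higher (1.21, from a single cell, and 0.28 without the highest cell of each pool), where 28.9% of genes were past 1 in either direction. Between 4 mpf Batch2 and 4 mpf, per2 was higher (22.3 against 10.5 TPM, log2 difference 1.02) and nr1d1 lower (3.13 against 7.52 TPM, -1.05), where 28.8% of genes were past 1 in either direction.

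A pair of pools across age shared a date. 12 mpf and 1 mpf were collected on the same date, and 6 of 9 members were past 1 lower in 12 mpf, where 32.2% of genes were and the median of all genes was -0.61. bhlhe40 (36.9 against 231 TPM, log2 difference -2.61), nr1d1 (2.61 against 18.7 TPM, -2.44) and bhlhe41 (37.6 against 156.9 TPM, -2.03) were the farthest, and 3.28%, 4.17% and 7.04% of genes lay below them. per2 (17.5 against 27.8 TPM, log2 difference -0.63) and nr1d2a (13.7 against 26.95 TPM, -0.92) were nearer the median of all genes. With ins left out of the TPM, 4 members were past 1 lower, where 1798 of 11347 genes were and the median of all genes was 0.00. A shared date does not give the hour for each pool, and heat-shock and immediate-early genes moved the same way as the members, with medians of -1.22 and -1.74 over the 10 and 11 genes tested. The 7 PAR bZIP and nfil3 genes tested had a median of -1.13. The 9 cryptochrome and ciart genes tested had a median of 0.35, with 1 past 1 higher and 2 lower. Of the positive-limb genes tested, arntl1a was higher in 12 mpf, at 7.30 TPM and 4.21 TPM in 1 mpf (log2 difference 0.67, with 91.5% of genes below it). The others were lower in 12 mpf: clock (ENSDARG00000003631) at 1.26 against 3.76 TPM (-1.08) and npas2 at 0.916 against 1.68 TPM (-0.48).

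The paper states that 13 mpf and 1 mpf cells shared a plate. All 9 members were past 1 lower in 13 mpf on the log2(mean TPM + 1) scale, where 40.8% of genes were and the median of all genes was -0.77. nr1d2a (1.07 against 28.6 TPM, log2 difference -3.84), nr1d1 (0.357 against 13.6 TPM, -3.43) and bhlhe41 (12.3 against 140.5 TPM, -3.41) were farthest. nr1d2b was nearest among the members with reads in both pools (11.4 against 34.3 TPM, -1.51). With ins left out of the TPM, 8 members were past 1 lower, where 3421 of 11347 genes were and the median of all genes was -0.28. In this pair 7 of 9 cryptochrome and ciart genes tested were past 1 lower as well, beside 6 of 6 glucocorticoid-response, 9 of 11 immediate-early and 2 of 10 heat-shock genes. arntl1a was higher in 13 mpf (4.75 against 2.29 TPM, log2 difference 0.81, with 93.9% of genes below it), from reads in 5 of 50 and 4 of 30 cells. Single cells gave 44.8% and 46.2% of these levels, and the 1 mpf training pool of 87 cells was at 4.21 TPM. The other positive-limb genes tested were lower in 13 mpf: clock (ENSDARG00000003631) at 0.059 against 3.26 TPM (-2.01) and npas2 at 0.336 against 1.58 TPM (-0.95). The 1 mpf cells here are those of the 1 mpf training pool, so both age pairs share them and are not independent. The paper describes the 1 mpf cells of this plate as a new batch. Whether the deposited 1 mpf cells shared the plate of 13 mpf therefore cannot be told.

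The diets were compared in 43 cells of 4 mpf IF and 35 cells of 4 mpf 3TD, 1 pool each. By the paper, both groups came from the same clutch at the same age, and their cells went through processing and sequencing together. On mean TPM, 4 of 9 members were past 1 lower in 4 mpf 3TD (bhlhe40, nr1d1, per3 and nr1d2b), where 32.2% of genes were and the median of all genes was -0.48. bhlhe40 was at 27.3 TPM in 4 mpf 3TD and 126.3 TPM in 4 mpf IF (log2 difference -2.17), and at 21.5 and 86.4 TPM without the highest cell of each pool (-1.96). The share of cells with a bhlhe40 read was 51.4% (33.99% to 68.6%) and 48.8% (33.3% to 64.5%). With logs averaged over cells the bhlhe40 difference was -0.89. nr1d2b was at 20.8 and 48.2 TPM (log2 difference -1.17). ins took 72.9% of the TPM in 4 mpf 3TD and 61.2% in 4 mpf IF. With ins left out, bhlhe40 stood at 110.5 and 282 TPM and nr1d2b at 84.2 and 113.9 TPM. On that scale 3 members were past 1 lower, where 2580 of 11347 genes were and the median of all genes was -0.05. The size of these differences thus depends on that scaling.

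Single cells carried the other differences between the diets. One cell gave 79.02% of the nr1d1 TPM of 4 mpf IF, and the log2 difference of -1.75 was -0.71 without the highest cell of each pool. For per3 one cell gave 81.4%, and -1.61 became -0.49. When logs were averaged over cells in place of log of the mean, 0 of 9 members passed 1. Few genes did so on that scale: of 11348, 295 were past 1 higher and 270 lower. per2 did not follow bhlhe40: it was at 13.0 TPM in 4 mpf 3TD and 12.6 TPM in 4 mpf IF, with reads in 71.4% (53.7% to 85.4%) and 41.9% (27.01% to 57.9%) of cells. arntl1a was at 7.69 and 6.90 TPM. Of the other lists, 9 of 10 heat-shock, 7 of 11 immediate-early and 5 of 7 PAR bZIP and nfil3 genes tested were past 1 lower in 4 mpf 3TD, and their part in the members' values was not tested.

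**Figure D5:**
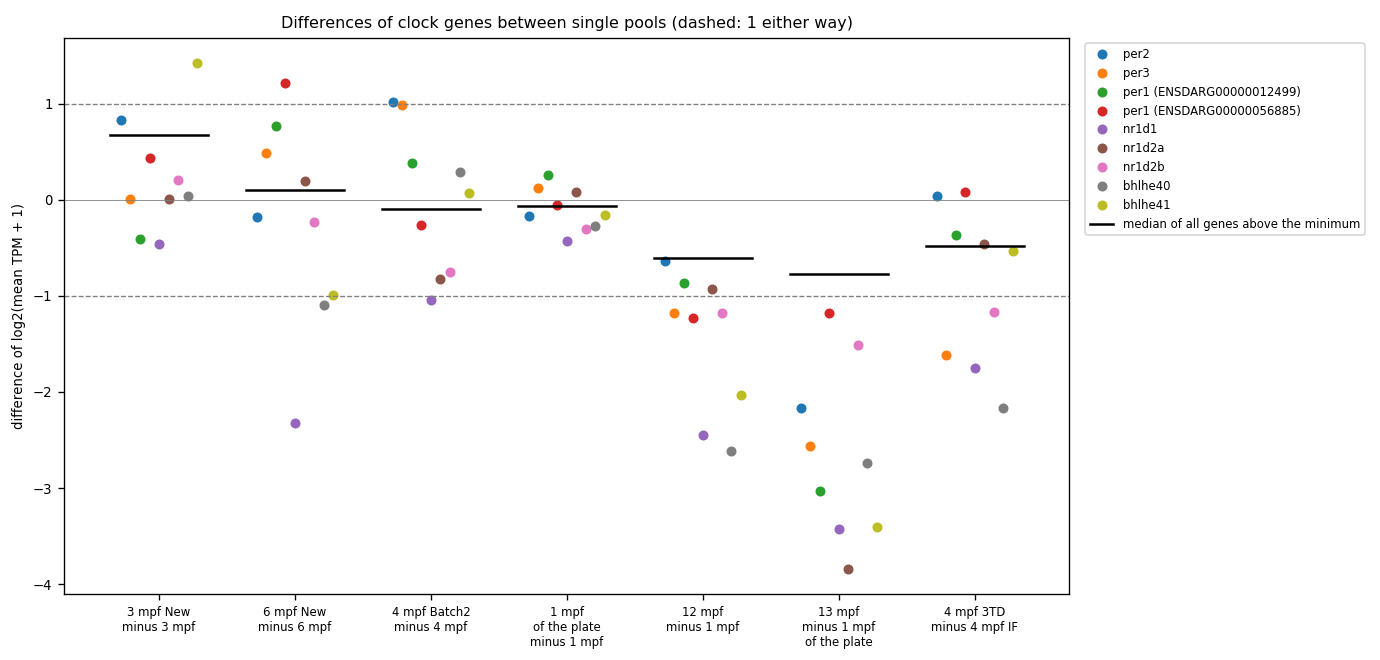
Difference of log2(mean TPM + 1) (y axis) between the 2 pools of each of 7 pairs (x axis) for the 9 clock genes, with the median of all genes with a mean of at least 1 TPM as a black line and a difference of 1 either way dashed. All 9 points lie below -1 for 13 mpf minus 1 mpf of the plate, whereas none passes 1 between 1 mpf of the plate and 1 mpf (5.68% of genes do), which share cells.

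As a description of variation, the SD of log2(mean TPM + 1) over the 16 plate pools was 1.14 for nr1d1 and 1.11 for nr1d2a, above that of 90.5% and 89.5% of genes with a mean of at least 1 TPM. bhlhe40 (74.3%) and bhlhe41 (68.9%) followed, and the median member was at 56.6%. Without the 30 repeated 1 mpf cells, over 15 pools, nr1d1 was at 88.7%, nr1d2a at 89.5%, bhlhe40 at 66.5%, bhlhe41 at 64.9% and the median member at 53.99%. Over the 8 training pools after 1 mpf the median member was at 29.5%, nr1d1 at 71.7% and nr1d2a at 64.8%, while bhlhe40 was at 12.8% and per1 (ENSDARG00000012499) at 7.04%. These places depend on the scale, since a larger pseudocount lowers the place of low genes.

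The genes whose pool patterns were most like the leading member of each family were taken among 6846 genes with a mean of at least 10 CPM, over the 9 training pools and with no test. per2 was most like ASCC3 (Pearson's r = 0.93), EPB41L2 (0.92) and FLRT3 (0.92) and least like SGTA (-0.95), ugt2a4 (-0.95) and HMGN2 (-0.93). nr1d2b was most like CNPY4 (0.94), DPP6 (0.92) and ARPP19 (0.91) and least like mtbl (-0.93), SSU72L1 (-0.92) and PURA (-0.89). bhlhe41 was most like ID4 (0.96), USP30 (0.95) and MTA1 (0.92) and least like B3GNT2 (-0.93), senp2 (-0.92) and MRPL33 (-0.89). With so many genes and 9 points such values arise readily. Among members the highest correlations with these leaders were those of per3 (0.73) and bhlhe40 (0.61) with bhlhe41, of nr1d1 (0.62) with nr1d2b and of nr1d2a (0.61) with per2. Between single cells of a pool, the 4 genes per2, nr1d2b, bhlhe40 and bhlhe41 had median pairwise correlations of 0.02 to 0.11 over 15 plate pools, too weak in such sparse reads to be read as a pattern.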

How the data were processed

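Single beta-cells were measured by full-length mRNA sequencing (SMART-Seq v4 per the labels). The authors trimmed reads (Trim Galore), mapped them against GRCz10 (HISAT2) and obtained counts per gene (htseq-count; versions not given in the sources used here). They deposited these counts without normalization for the training ages, and TPM (each count divided by gene length and scaled to 1000000 per cell) for all cells. Gene lengths were recovered from training counts and TPM, and cohort reads from TPM, whole within 0.02 for 100% of values with a length. Columns were mapped to pools by name or table title. Members and lists were chosen with earlier results of these data known.

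Counts were summed per pool and tested with edgeR 4.0.16 (quasi-likelihood, TMM, filterByExpr, Benjamini-Hochberg, threshold 0.05) in R 4.3.3, on simulated data first. DESeq2 1.42.0 was an alternative. In the simulation 60%, 23% and 58% of genes changed by 3 (log2) were recovered in the Adult, Juvenile and trend fits, and 6.98%, 13.2% and 4.92% of the calls were false. The changed genes were drawn from those above the median CPM. Relations with the bmal and clock sums used exact permutation of log2(CPM + 1). Single pools were compared by log2(mean TPM + 1), with no test, against the 11348 genes with a mean of at least 1 TPM, of which all 9 members were part. Shares carry Clopper-Pearson 95% intervals. The text names all members, the clock, response and marker lists, and the 3 genes most and least like the leading member of each family. Alternatives were pseudocounts of 0.1 and 10, no filter, ins left out, cells with at least 100000 reads, joined batches, all 17 pools and each pool left out. The alternatives without the repeated 1 mpf cells and without the highest cell of each pool were added after seeing the data. Tests that take cells as replicates were not repeated. Columns of the authors' own comparisons were not used. Symbols are those of the name table. No DNA sequence was used here.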

Additional observations from a re-analysis of the deposited data

How the results depend on the processing

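No paired analysis was possible because the replicate numbers of the labels name cells, not fish or batches. No member was called in any fit under any alternative run. DESeq2 called 55 genes (Adult), 110 (Juvenile) and 19 (trend), where edgeR called 0, 0 and 2. In the Juvenile fit 1 gene was called with no filter on low counts and 1 without the repeated 1 mpf cells, and in the trend 0 with cells of at least 100000 reads. Leaving out single pools gave 0 calls in the Adult fit, 0 to 2 in the Juvenile and 0 to 1 in the trend; the cause was not tested. The signs below changed, all for values that were not called. per2 was 0.078 in the Juvenile fit with joined batches, and its trend was -0.0066 with no filter and -0.024 with joined batches. Against the bmal sum over all 17 pools on TPM, r was -0.397 for per2, -0.57 for per1 (ENSDARG00000012499), -0.62 for per1 (ENSDARG00000056885) and -0.16 for bhlhe41, and over the 9 pools on TPM 0.14 for per3, 0.074 for nr1d1 and 0.45 for nr1d2b. Against the clock sum, r was 0.42 for per1 (ENSDARG00000012499) and 0.38 for nr1d1 over the 17 pools, 0.078 for nr1d1 on TPM and -0.21 for nr1d2b with joined batches. Leaving out single pools, the log2 differences in the Adult fit ranged from -2.40 to 0.42 for per1 (ENSDARG00000056885) and from -0.35 to 0.057 for bhlhe40. In the Juvenile fit they ranged from -0.22 to 0.18 for per2, -0.058 to 0.38 for per3 and -0.038 to 0.98 for per1 (ENSDARG00000056885), and in the trend from -0.018 to 0.10 for per2 and -0.071 to 0.23 for nr1d2a. For r with the bmal sum the ranges were -0.48 to 0.11 (per3), -0.25 to 0.59 (per1, ENSDARG00000012499), -0.44 to 0.20 (nr1d2b) and -0.45 to 0.35 (bhlhe41), and with the clock sum -0.044 to 0.67 (per3), -0.45 to 0.080 (nr1d1), -0.32 to 0.36 (nr1d2b) and -0.080 to 0.28 (bhlhe40). Members past 1 between 3 mpf New and 3 mpf numbered 2 with a pseudocount of 0.1, 0 with logs averaged over cells, 3 with ins left out and 2 without the highest cells, against 1. With a pseudocount of 10 they numbered 0 for 6 mpf New, 0 for 4 mpf Batch2, 3 for 12 mpf minus 1 mpf and 1 for the diets. With logs averaged over cells they numbered 1 for 4 mpf Batch2 and 0 for the diets, and without the highest cells 2 for the diets. Counts over all 11348 genes changed too. With a pseudocount of 10, 1222 were past 1 lower for 12 mpf minus 1 mpf and 919 for the diets. With logs averaged over cells, 270 were past 1 lower for the diets. The median member's place in spread over plates was 46.4% (pseudocount 0.1), 77.6% (pseudocount 10), 40.1% (ins left out) and 71.3% (minimum mean of 5 TPM), and over the 8 later pools 51.7% (pseudocount 10) and 46.8% (minimum mean of 5 TPM). Depth and 1 pool per cohort limit all of these: per3 and per1 (ENSDARG00000056885) rest on few reads.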
